A study of Arabidopsis thaliana with 4 samples.

Results

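The genes described here make ethylene in the first leaf of Arabidopsis thaliana: ACC synthase genes ACS2 (AT1G01480), ACS6 (AT4G11280), ACS7 (AT4G26200), ACS8 (AT4G37770) and ACS11 (AT4G08040), and ACC oxidase genes ACO1 (AT2G19590), ACO3 (AT1G12010), ACO4 (AT1G05010) and ACO5 (AT1G77330). They were matched by locus identifier, 9 of the 34133 loci with a value in every library. RNA sequencing of leaf total RNA gave 4 libraries. They were 2 of the hybrid Col-0xAk-1, whose Col-0 parent is the reference accession of the species, and 2 of the inbred accession Ak-1. All plants were 14 days old and came from Murashige and Skoog plates with 1% sucrose. The labels name the inbred parent in several ways, as Ak-1 in titles and strain, Aa-0 in the genotype field and Ak-0 in the series' design, and the titles are followed here. The series is about heterosis in biomass, by which hybrids can outgrow the lines they come from. Col-0 itself was not analysed here. No label ties the 2 libraries of a group to separate plants or pools, so the scatter between them may be technical. A p-value here only sets a difference between groups against that scatter and the spread borrowed from other loci.

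Ethylene is a gaseous plant hormone that restrains leaf growth, promotes senescence and carries wound, touch and pathogen signals. Plants make it from S-adenosylmethionine (SAM), which ACC synthase turns into 1-aminocyclopropane-1-carboxylic acid (ACC), usually the limiting step, and ACC oxidase turns ACC into ethylene. Arabidopsis ACC synthases differ in the tail of the protein. The kinases MPK3 and MPK6 phosphorylate and stabilise ACS2 and ACS6, while ETO1 and its relatives send ACS8 and similar enzymes to breakdown.

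Values are FPKM, fragments scaled by transcript length and by the library's mapped fragments, as deposited, so levels of different genes can be set side by side. Differences are on the log2(FPKM + 1) scale, hybrid minus Ak-1, from limma over the 15905 loci whose values averaged 1 FPKM or more. A locus is called when its adjusted p (Benjamini-Hochberg) is under 0.05, and every adjusted p below is from this fit unless another setting is named. The hybrid libraries were less alike than the Ak-1 libraries, with 74 tested loci over 4-fold apart between the hybrid pair and 0 between the Ak-1 pair, on the same scale. Total depth is unknown. Steps between low values gave relative depths of 1.35 and 1.17 for hybrid replicates 1 and 2 and 1.12 for Ak-1 replicate 2, against Ak-1 replicate 1. The 6 leaf mesophyll markers were high in every library, with a summed level of 51848 and 41544 FPKM in the hybrid and 34845 and 39061 FPKM in Ak-1. Replicate 2 was above replicate 1 for 1 of the 6 in the hybrid and for 6 in Ak-1, and the part of these markers in the results was not tested. The shoot apex and flower markers STM, AP1 and AG stayed at or under 0.20 FPKM throughout. The root markers CASP1, TIP2;3 and PHT1;1 stayed at or under 0.47 FPKM, while the root gene PYK10 had 0.35 and 8.92 FPKM in hybrid leaves, against 0.31 and 0.82 FPKM in Ak-1 leaves, and its part in the results was not tested.

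Of these 9 genes, the synthase gene ACS6 and the oxidase gene ACO4 were well expressed in the leaves, and 7 were near the floor. ACS6 held 97.1% and 98.2% of the summed FPKM of the 5 ACS genes in the hybrid libraries and 97.9% and 98.4% in the Ak-1 libraries. The other 7 genes had means of 0.0425 to 0.640 FPKM over the 4 libraries and fell under the filter, so they have values but no test. Of the 2 tested genes 0 were called by limma, against 4.13% of all tested loci, and 1, ACS6, had an unadjusted p under 0.05, against 20.2%.

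**Figure D1:**
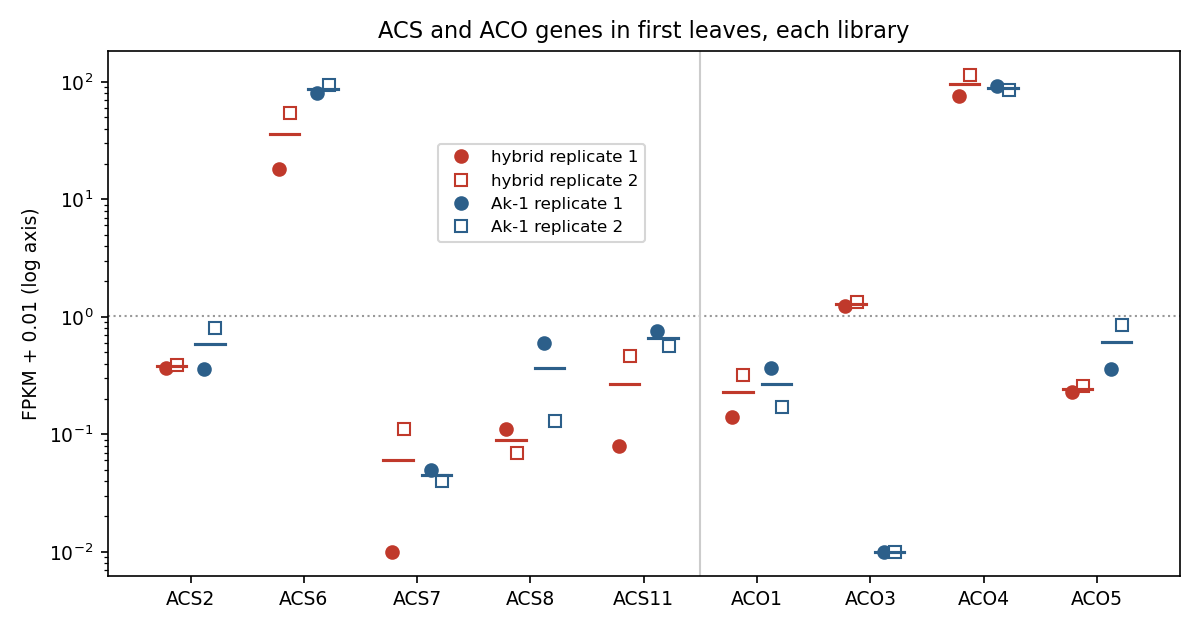
FPKM of the 9 genes in each library, on a log axis with 0.01 added, hybrid left of Ak-1 for each gene; short bars are group means and the dotted line is at 1 FPKM. ACO4 and ACS6 stand above 10 in every library, both hybrid points of ACS6 lie under both Ak-1 points, and ACO3 lies at the floor (0 FPKM) in Ak-1 only.

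Among the synthases, ACS6, whose transcript is known for rapid induction by touch and wounding, was lower in the hybrid without passing the test. It had 18.0 and 54.2 FPKM in the hybrid libraries, against 80.1 and 94.2 FPKM in the Ak-1 libraries. The groups did not overlap, but the hybrid libraries stood 3.02-fold apart while the Ak-1 libraries were close. The means were 36.1 ± 25.6 FPKM in the hybrid and 87.2 ± 9.97 FPKM in Ak-1 (SD, n = 2 each). The log2 difference was −1.44 (SE 0.50, 95% interval −2.72 to −0.17, unadjusted p = 0.0334, limma adjusted p = 0.204). Without hybrid replicate 2 the log2 difference was −2.21, and without hybrid replicate 1 it was −0.67. In both fits the scatter within groups came from the close Ak-1 pair alone. Over the alternatives that kept all 4 libraries the limma adjusted p ran from 0.123 (replicate block) to 0.30 (no filter on low values). In bulk leaf RNA, fewer cells with the transcript and less of it per cell cannot be told apart.

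ACS2, the other synthase that MPK3 and MPK6 act on, was near the floor. It had 0.36 and 0.38 FPKM in hybrid leaves, against 0.35 and 0.80 FPKM in Ak-1 leaves, so the groups overlapped. ACS11 had 0.07 and 0.45 FPKM in the hybrid libraries, both under the 0.75 and 0.55 FPKM of the Ak-1 libraries. ACS8 had 0.10 and 0.06 FPKM in hybrid leaves, against 0.59 and 0.12 FPKM in Ak-1 leaves, again without overlap, with the higher Ak-1 value in replicate 1 alone. ACS7, whose enzyme lacks the regulatory tail of the other types, had the lowest mean of the 9 genes over the 4 libraries, with 0 and 0.10 FPKM in the hybrid and 0.04 and 0.03 in Ak-1. The 4 genes together summed to 0.53 and 0.99 FPKM in the hybrid and to 1.73 and 1.5 in Ak-1. ACS6 stood above these 4 genes in every library.

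Among the oxidases, ACO4 had groups that overlapped. ACO4, listed in the annotation as EFE for ethylene-forming enzyme, had 76.2 and 115 FPKM in the hybrid and 91.6 and 84.9 FPKM in Ak-1. The hybrid values lay on either side of the Ak-1 values, with a log2 difference of 0.09 (SE 0.23, 95% interval −0.49 to 0.67, limma adjusted p = 0.874). That difference was −0.21 without hybrid replicate 2.

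ACO3 was the only one of the 9 genes listed at 0 in a whole group. It had 1.23 and 1.33 FPKM in the hybrid libraries while both Ak-1 libraries list it at 0. A value listed at 0 may be a failed estimate, so no fold is given. Its mean of 0.640 FPKM kept it out of the main fit. With no filter on low values it was called higher in the hybrid (log2 difference 1.19, SE 0.07, limma adjusted p = 0.0197), in a setting that called 0.739% of 24073 loci higher. The Ak-1 libraries differ by nothing at 0, so that SE rests on the hybrid pair and on the spread borrowed from other loci. In all, 66 of the 34133 loci (0.193%) shared this pattern, with hybrid values of 1 FPKM or more and both Ak-1 values listed at 0, and 8 (0.0234%) had the opposite one. Because Col-0 is the reference accession, a transcript missing or diverged in Ak-1 and one not expressed there cannot be told apart from these files. The nearest protein-coding neighbours in the annotation with values above 0 on either side had signal in both groups. AT1G12000 had 12.3 and 18.6 FPKM in the hybrid and 14.5 and 11.8 in Ak-1, and AT1G12020 had 4.57 and 7.04 FPKM in the hybrid and 3.78 and 3.12 in Ak-1.

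ACO5 had 0.22 and 0.25 FPKM in the hybrid libraries, under the 0.35 and 0.84 FPKM of the Ak-1 libraries. Its locus shares 34 bases with its neighbour MEI1, and reads there have no strand to separate them. ACO1 had 0.13 and 0.31 FPKM in hybrid leaves, against 0.36 and 0.16 FPKM in Ak-1 leaves, which overlap. Over the 9 genes the groups did not overlap for 5, against 46.0% of loci. The hybrid was lower for ACS6, ACS8, ACS11 and ACO5, against 27.1% of the 24073 loci with any value above 0, and higher for ACO3, against 18.9%.

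The next question was where the family stands beside 6 lists of genes. A touch and wound list was included with those of the ethylene pathway, and counts of pathway genes cover all 6. Of 64 tested genes among the 72 listed, WRKY33, RAV1, ERF6, JAZ10 and CML38 were called, all lower in the hybrid, where 2.51% of all tested loci were called lower and 1.62% higher. ERF6, JAZ10 and CML38, 3 of the 5 calls, were in the touch and wound list. With no filter on low values ERF6 alone kept its call. Leaving out Ak-1 replicate 1, or Ak-1 replicate 2, rests the spread on the hybrid pair. The 5 genes lost their calls there, but so did nearly all other loci, so that loss is not particular to them. Their log2 differences then ran from −4.06 (ERF6 without Ak-1 replicate 1) to −1.26 (RAV1 without Ak-1 replicate 2).

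**Figure D2:**
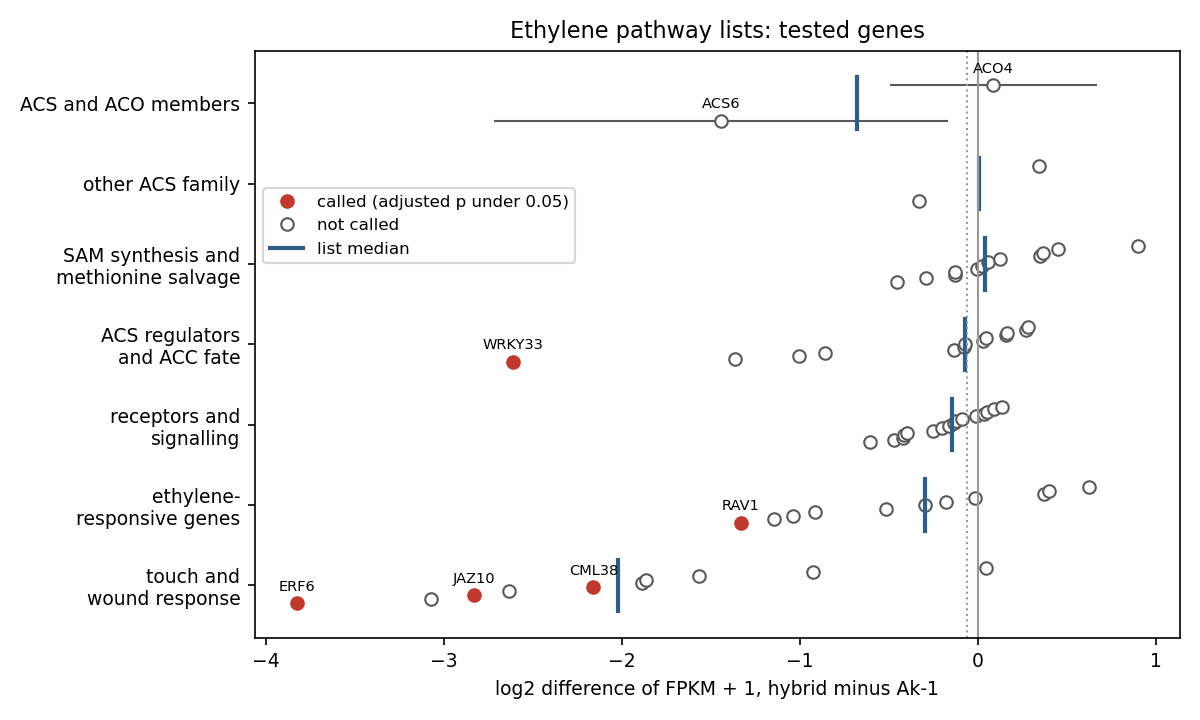
Log2 differences (hybrid minus Ak-1) of the tested genes in the ACS and ACO family and in the 6 lists, touch and wound included. Filled points are called, blue bars are list medians, and horizontal lines are 95% intervals of the 2 tested ACS and ACO genes. The dotted line is the median of all tested loci, −0.06. The receptor list sits near that line, while the touch and wound list has its median at −2.02.

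Upstream of the synthases, SAM synthesis and methionine salvage, which returns the sulphur group left over from ACC synthesis, had 0 of 12 tested genes called by limma, against 4.13% of all tested loci, with 3 at an unadjusted p under 0.05, against 20.2%. The list median was 0.04, against −0.06 over all tested loci. Its smallest adjusted p was for ARD4, an acireductone dioxygenase gene of the salvage cycle. ARD4 had 256 and 375 FPKM in hybrid leaves, against 158 and 174 FPKM in Ak-1 leaves (log2 difference 0.90, SE 0.22, limma adjusted p = 0.110). Its adjusted p was 0.0317 without hybrid replicate 1, 0.122 without hybrid replicate 2, 0.593 without Ak-1 replicate 1 and 0.487 without Ak-1 replicate 2. Among the 4 SAM synthetase genes 0 were called by limma and 1, SAM1, had an unadjusted p under 0.05. SAM2 and MAT4 had groups that overlapped, with log2 differences of −0.0031 and 0.06. SAM1 and MAT3 had groups that did not, as held for 46.0% of the 24073 loci with any value above 0. SAM1 had 285 and 291 FPKM in the hybrid and 198 and 225 FPKM in Ak-1 (limma adjusted p = 0.187). MAT3 had 109 and 118 FPKM in hybrid leaves, against 94.8 and 83.5 FPKM in Ak-1 leaves (limma adjusted p = 0.278). These 4 genes were named after their values were seen.

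Of the 6 remaining genes of the ACS family, 2 passed the filter. Of these 2, 0 were called by limma, against 4.13% of all tested loci, and 0 had an unadjusted p under 0.05, against 20.2%. Both, ACS10 and ACS12, encode aminotransferases without ACC synthase activity. ACS10 had 42.4 and 45.5 FPKM in the hybrid libraries against 37.0 and 31.9 FPKM in the Ak-1 libraries (log2 difference 0.35, SE 0.15, limma adjusted p = 0.279). The groups did not overlap, as held for 46.0% of the 24073 loci with any value above 0. ACS10 was above ACS6 in hybrid replicate 1 only. ACS12 went the other way, also without overlap, with 4.33 and 3.67 FPKM in the hybrid and 4.86 and 5.73 in Ak-1. Its log2 difference was −0.33 (limma adjusted p = 0.330). The genes ACS1, ACS4, ACS5 and ACS9 together had 1.2 and 0.57 FPKM in the hybrid and 0.68 and 0.38 in Ak-1, with ACS1 listed at 0 in every library.

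Regulators of the synthases and of ACC use had 1 of 13 tested genes lower, 0 higher and 12 not called, with a median of −0.07. Over all tested loci 2.51% were called lower and 1.62% higher, and the median was −0.06. The call was WRKY33, a transcription factor that binds the ACS2 and ACS6 promoters after pathogen attack. WRKY33 had 13.7 and 29.3 FPKM in hybrid leaves, against 102 and 161 FPKM in Ak-1 leaves (log2 difference −2.61, SE 0.40, limma adjusted p = 0.0354). Its adjusted p was 0.0504 when loci averaging under 5 FPKM were dropped and 0.0909 with no filter on low values. Among the kinases, which were named after their values were seen, MPK3 had 26.2 and 41.9 FPKM in hybrid leaves, against 55.2 and 82.2 FPKM in Ak-1 leaves (limma adjusted p = 0.157). MPK6 had 26.4 and 30.1 FPKM in hybrid leaves, against 27.2 and 28.1 FPKM in Ak-1 leaves (limma adjusted p = 0.938). MKK9, which activates both kinases, had 6.96 and 41.8 FPKM in the hybrid and 41.8 and 51.6 in Ak-1, so only hybrid replicate 1 was low. The list's other kinase genes, MKK4 and MKK5, differed less than MPK3 and MKK9. MKK4 had 4.46 and 7.50 FPKM in the hybrid and 4.95 and 4.37 in Ak-1 (log2 difference 0.27). MKK5 had 9.22 and 9.71 FPKM in the hybrid and 9.73 and 10.3 in Ak-1 (log2 difference −0.08). The breakdown factor gene ETO1 had 8.42 and 7.67 FPKM in hybrid leaves, against 9.63 and 8.21 FPKM in Ak-1 leaves.

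Ethylene receptors and signalling genes had 0 of 16 tested members called by limma, against 4.13% of all tested loci. Of the 16, 4 had an unadjusted p under 0.05, all lower, where 12.6% of all tested loci were lower at that p. The log2 differences of the 16 ran from −0.61 to 0.14 with a median of −0.15. At the low end was ETP1, an F-box gene whose product directs EIN2 to breakdown. ETP1 had 16.6 and 12.8 FPKM in hybrid leaves, against 23.2 and 22.1 FPKM in Ak-1 leaves (log2 difference −0.61, SE 0.17, limma adjusted p = 0.141). Ethylene-responsive genes had 1 of 11 tested members called lower, against 2.51% of all tested loci, and 0 higher, against 1.62%, with 10 not called. The list median was −0.30, against −0.06 over all tested loci. ERF1 and ORA59 passed the filter only through Ak-1, and the median of the other 9 was −0.18. RAV1, also known as EDF4, encodes a DNA-binding factor downstream of EIN3. It had 27.1 and 36.9 FPKM in hybrid leaves, against 77.2 and 85.0 FPKM in Ak-1 leaves (log2 difference −1.33, SE 0.19, limma adjusted p = 0.0300). With no filter on low values its adjusted p was 0.0660.

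ACS6 is also a gene of rapid touch and wound responses, and 10 of 10 listed genes of that kind were, like ACS6, lowest in hybrid replicate 1. That order was not counted over all loci, and the list was chosen with earlier results of these data known. The groups overlapped for TCH2 and TCH4, which were named after their values were seen. TCH4 had 15.1 and 78.9 FPKM in the hybrid libraries, against 25.7 and 44.4 FPKM in the Ak-1 libraries (log2 difference 0.05). The log2 difference was negative for the other 9 genes. In this list of 10 genes 3 were called lower, against 2.51% of all tested loci, and 0 higher, against 1.62%, while 7 were not called. The median log2 difference was −2.02, against −0.06 over all tested loci. The summed level of the 10 genes was 75.1 and 281 FPKM in the hybrid and 431 and 635 FPKM in Ak-1, and none was listed at 0. Against the Ak-1 mean, hybrid replicate 1 had a list median of −2.92 and hybrid replicate 2 one of −1.47, where ACS6 was at −2.21 and −0.67. Replicate 2 exceeded replicate 1 for 10 of 10 genes in the hybrid pair and for 10 of 10 in the Ak-1 pair, as it did for ACS6. The list median of replicate 2 minus replicate 1 was 1.43 in the hybrid and 0.63 in Ak-1, on the log2 scale. Over all tested loci that median was 0.05 and −0.04, and the share of loci above replicate 1 was not counted. The part of this response in the ACS6 values was not tested.

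The called members were ERF6, JAZ10 and CML38. ERF6, an ethylene response factor gene of stress responses, had 1.66 and 4.16 FPKM in hybrid leaves, against 43.5 and 60.9 FPKM in Ak-1 leaves (limma adjusted p = 0.0106). JAZ10, a jasmonate-induced repressor of jasmonate signalling, had a limma adjusted p of 0.0300, and 0.0568 with a pseudocount of 0.1. CML38, a calmodulin-like gene, had 0.18 and 0.54 FPKM in hybrid leaves, against 3.28 and 7.46 FPKM in Ak-1 leaves (limma adjusted p = 0.0445). With a hybrid mean of 0.36 FPKM it passed the filter only through Ak-1. Without it 4 genes of the 6 lists were called, 2 of them in the touch and wound list, with that list's median at −1.88. The CML38 call was lost whichever of the 4 libraries was left out and under both scalings tried, with an adjusted p of 0.0582 for median-of-ratios scaling and 0.0533 for quantile normalization.

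**Figure D3:**
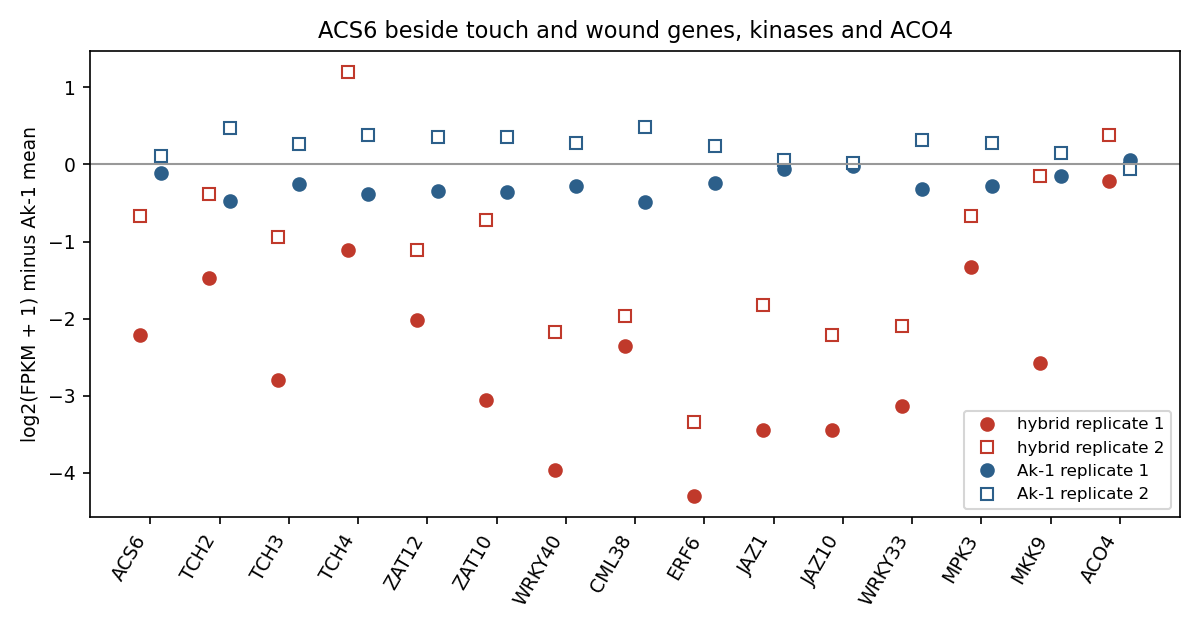
Each library's log2(FPKM + 1) minus the Ak-1 mean for ACS6, the 10 touch and wound genes, WRKY33, MPK3, MKK9 and ACO4; hybrid points stand left of Ak-1 points. ACS6 lies at −2.21 and −0.67 in hybrid replicates 1 and 2, while ACO4 lies at −0.21 and 0.38.

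The gap between the hybrid libraries in ACS6 was 1.54 on the log2 scale, and 1.09% of tested loci had a gap at least as large. The same gap was 0.59 for ACO4, which 14.9% of tested loci matched or exceeded. Between the Ak-1 libraries the gap in ACS6 was 0.23, matched or exceeded by 30.6% of tested loci. Likeness of pattern was measured as the distance between centred log2(FPKM + 1) profiles over the 4 libraries, so a small distance with so few libraries is a description only. The nearest to ACS6 were HIR2 (0.02), a gene named for the hypersensitive reaction, MYB73 (0.04) and AT5G46710 (0.15). HIR2 had 3.12 and 11.0 FPKM in hybrid leaves, against 16.8 and 19.95 FPKM in Ak-1 leaves.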

How the data were processed

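Leaf RNA of 2 hybrid and 2 Ak-1 samples was profiled. Per the labels' protocols, RNA came from an RNeasy plant kit and unstranded libraries were built with the TruSeq RNA Sample Prep chemistry (V2). Each file deposited by the authors holds FPKM per locus, rounded to 2 decimals. Tools named in the submitters' processing notes are Cufflinks 2.0.2, TopHat2 2.0.8b, edgeR 3.12.0 and TopHat, with TAIR10 as the build. The role of each tool and the treatment of reads matching several loci are not given in the sources used here. A count model was not run, because FPKM are scaled values.

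FPKM were analysed as deposited, with groups and replicate numbers from the titles. Log2(FPKM + 1) was fitted with limma 3.58.1 in R 4.3.3 (lmFit, eBayes with a mean-variance trend, 2 residual and 3.18 prior degrees of freedom, two-sided, no covariate). A fold change on this scale understates the change of low genes. Intervals are 95% from the same fit. The code was also run on simulated data with the same spread in both groups, which the hybrid and Ak-1 pairs here did not have. Relative depth is the ratio at which values from 0.2 to 1 FPKM of library pairs most often coincided, at 1, 2 or 0.5 times that ratio. Names came from a TAIR10.1 gene table, which held 31416 of the loci and the 9 genes reported, and the common names ACO3, ACO4 and ACO5 were kept. Its coordinates are not printed, and promoter and protein sequences were not analysed here.

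The members and lists were chosen with earlier results of these data known. Of the 10 members 1 is not reported here. Named genes are the members, up to 4 called genes with the largest change per pathway list or, with none called, the 1 with the smallest adjusted p, and the 3 loci nearest in pattern to the most abundant ACS gene. Other genes are marked where named after their values were seen, apart from markers, neighbours, ETO1, ERF1, ORA59 and the other ACS genes. Alternatives were another pseudocount, filters, scalings, no trend, a replicate block and leaving out each library.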

Additional observations from a re-analysis of the deposited data

How the results depend on the processing

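The fit rests on 2 libraries a group. Total depth is unknown, so its part in the calls was not tested. The 7 genes averaging under 1 FPKM have no test beyond the one without a filter. Main counts were 257 loci higher and 400 lower, 0 ACS and ACO genes called, and 5 pathway genes lower and 0 higher. With no filter on low values 178 loci were higher and 173 lower, 1 ACS or ACO gene was called (ACO3) and 1 pathway gene was lower. When loci averaging under 5 FPKM were dropped, 92 loci were higher and 206 lower, and 3 pathway genes were lower; fewer loci were tested in that setting. Leaving out each library in turn gave 3 to 560 loci higher and 1 to 751 lower. It gave 0 to 1 ACS or ACO genes called (ACS6 without hybrid replicate 2), 0 to 10 pathway genes lower and 0 to 2 higher. A group left with 1 library was taken to vary like the other. Log2 differences without each library ran from −0.21 (without hybrid replicate 2) to 0.38 for ACO4, a change of sign with no call; the cause was not tested. Replicate numbers share no stated batch, and the differences between replicates 1 and 2 correlated at −0.14 between the groups across 15905 loci. With the replicate number as a block, 200 loci were higher and 365 lower, 8 pathway genes were lower and ACS6 had a limma adjusted p of 0.123. With crossed pairs, an alternative added after seeing the data, the block gave 262 higher and 439 lower.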

Other observations

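A gene close to ACO1, named after its values were seen, had a contrast between the groups that ACO1 lacked. CDA1, for a cytidine deaminase, lies 3 loci from ACO1 in the annotation's gene order. It had 2.44 and 4.73 FPKM in the hybrid libraries against 0 and 0.04 FPKM in the Ak-1 libraries. TET2, a tetraspanin gene in the same stretch, had 1.55 and 2.56 FPKM in the hybrid and 1.53 and 1.22 FPKM in Ak-1.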
